A study of Homo sapiens with 36 samples.

Results

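The replication-dependent histone genes encode the core histones H2A, H2B, H3 and H4 and the linker histone H1 that package newly made DNA. They were chosen as the rows of the deposited count table whose identifier belongs to a protein-coding gene named H1-1 to H1-6 or with a symbol starting H2AC, H2BC, H3C or H4C. Of 77 rows with such symbols, 8 were pseudogenes and were left out, which gave 69 of the 74628 genes in the table: 6 H1, 16 H2A, 19 H2B, 13 H3 and 15 H4 genes. The choice rests on names, and no measured value entered it. These genes lie mostly in clusters, are transcribed in S phase, and give short mRNAs that end in a conserved stem-loop in place of a poly(A) tail. The stem-loop is bound by SLBP (stem-loop binding protein), and their transcription depends on NPAT, a substrate of cyclin E kinase. Proliferating T-cell lines make them each cycle, whereas replication-independent variants such as H3-3B are made throughout the cycle.

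The cells were Jurkat, a human T-cell leukaemia line, that stably carried dCas9-VP64 (a nuclease-dead Cas9 joined to a transcriptional activator) and were mCherry-positive. Both groups were transduced with a pXPR lentiviral guide vector and kept in puromycin for 3 days. One group received 1 guide against RELA (sgRELA), the gene of the NF-kB subunit p65, and the other a non-targeting guide (sgControl). RNA was taken 5, 6 and 7 days after transduction from 3 biological replicates in each of the 6 groups, and 2 RamDA-seq libraries were made from each RNA. Transductions were in triplicate per condition, and the labels do not tie a replicate number on one day to the culture on another. RamDA-seq reads RNAs with and without a poly(A) tail, so histone mRNAs that lack a tail are counted. Counts per gene do not separate them from any longer transcripts of the same gene. Untransduced cells and a second RELA guide were not analysed here.

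Totals were 7586205 to 16124473 counts in the 36 libraries and 18769530 to 29503934 in the 18 RNA samples once both libraries were added. The histone genes took 6924 to 16911 counts per RNA sample. RELA itself was at 20.2 to 39.3 CPM (counts scaled to library size with TMM factors) in the 9 sgControl samples and at 120 to 318 CPM in the 9 sgRELA samples, so RELA followed the label in every RNA sample. All 10 T-cell markers had counts in every RNA sample, summing to 3324 to 4658 CPM. Monocyte and epithelial or fibroblast lists summed to at most 3.99 and 10.9 CPM. The B-cell list separated by guide, at 16.7 to 26.2 CPM in sgControl and 48.5 to 62.8 CPM in sgRELA, nearly all of it CD79A, a chain of the B-cell receptor, and its part in the results was not tested. HBB, HBA1, HBA2, EPCAM and COL1A2 were at 0 throughout. Within one RNA, the histone counts of the 2 libraries differed by a chi-square of 5.16 to 17.7 per degree of freedom, beyond counting noise. One library stood apart: the first library of sgControl day 6 replicate 1 held the histone genes at 676 CPM by plain total, and the other 5 libraries of that group at 306 to 375. In sgControl on day 5 the 2 library sets differed as well: the first libraries held the histone genes at 664, 551 and 427 CPM and the second libraries of the same RNAs at 354, 332 and 301, while the 6 libraries of day 7 lay at 599 to 706.

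Of the 69 genes, 53 had enough counts to be tested, namely 6 of 6 H1, 13 of 16 H2A, 15 of 19 H2B, 9 of 13 H3 and 10 of 15 H4 genes. Among the 16 not tested, H2BC1, a testis histone gene, had no count and the highest was H2BC3 with 106 counts over all samples. In GENCODE v29 on GRCh38, 53 of the 69 lie on chromosome 6, 11 on chromosome 1, 1 on chromosome 12 and 1 on chromosome 21, and H2AC19, H3C2 and H3C3 have no entry. Genes of one family have near-identical coding sequences and 16 overlap another annotated gene. How reads with several matches or overlaps were counted is not given in the sources used here, so the split of counts between close copies is uncertain.

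The 3' end signal is shown first because it sets this family apart from other mRNAs. In GENCODE v29 transcripts, 29 of 66 genes with a transcript held a 16-base stem-loop pattern. Of the 37 without it, 33 have models whose length is a multiple of 3, as models that stop at the stop codon do. The most frequent form, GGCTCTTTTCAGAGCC, was found in 15 genes. The form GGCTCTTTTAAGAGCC was found in 4 genes, and the H4 forms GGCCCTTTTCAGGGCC and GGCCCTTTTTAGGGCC in 5 and 3. The 11 genes below are examples among those named in the comparisons, and H2AC13, H2BC8, H2BC13 and H2BC26 also hold the most frequent form. Capitals mark the stem-loop, and the lower-case bases are its flanks, 5' to 3'.
H2AC6: acccaaaGGCTCTTTTCAGAGCCcccctac
H2AC8: aaccaaaGGCTCTTTTCAGAGCCacccacc
H2AC25: acataaaGGCTCTTTTCAGAGCCacctact
H2BC5: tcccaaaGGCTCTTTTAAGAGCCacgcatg
H2BC7: tcccaaaGGCTCTTTTAAGAGCCacccact
H2BC18: ccccaaaGGCTCTTTTCAGAGCCacttcag
H2BC21: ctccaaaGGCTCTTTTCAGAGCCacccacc
H2AC11: aaccaacGGCTCTTTTCAGGGCCacccacg
H3C6: atccaaaGGCTCTTCTCAGAGCCaaccact
H4C5: aatcaaaGGCCCTTTTCAGGGCCgcccaca
H4C16: tccaaaaGGCCCTTTTCAGGGCCcccaaac
H2AC11 and H3C6 each carried a form found in no other gene here. In 18 of the 29 genes the annotated transcript ran more than 500 bases past the stem-loop, by 1128 bases in H2AC6 and 1729 bases in H2BC21.

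The promoters were searched on both strands over the 250 bases before the RefSeq start (GRCh38.p14), available for 63 of the 69 genes. For 4 genes with several RefSeq starts, the one nearest the GENCODE start was taken. The octamer ATTTGCAT, the element bound by the POU factor OCT1, was present in 25 of 63 (39.7%) and in 1.66% of 27305 promoters of the same length. It was in 14 of 18 H2B and 11 of 15 H2A promoters, and in no H1, H3 or H4 promoter. Divergent H2A and H2B pairs with starts less than 250 bases apart have largely overlapping windows, so an octamer can count for both genes. CCAAT was in 53 of 63 (84.1%, against 33.0% of all), with 3 of 13 H4 promoters holding it. TATAAA was in 42 of 63 (66.7%, against 11.1%). The kappa B decamer of the immunoglobulin kappa enhancer, a classical NF-kB site, was in 0 of 63 and in 0.183% of all promoters, a statement about these letters in this window only. Shown are 3 promoters of H2A and H2B genes with the octamer (H2BC7 and H2AC8, which rose on day 7, and H2BC21, for which no day difference was called) and that of H1-5, the most counted gene. Capitals mark the octamer, CCAAT and TATAAA on either strand.
H2BC7 (chr6:26199266-26199515, plus strand): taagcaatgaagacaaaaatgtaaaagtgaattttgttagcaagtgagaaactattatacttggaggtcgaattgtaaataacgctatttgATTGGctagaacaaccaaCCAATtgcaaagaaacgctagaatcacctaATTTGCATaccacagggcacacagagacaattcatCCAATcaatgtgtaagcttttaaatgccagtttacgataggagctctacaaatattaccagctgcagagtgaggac
H2AC8 (chr6:26216671-26216920, plus strand): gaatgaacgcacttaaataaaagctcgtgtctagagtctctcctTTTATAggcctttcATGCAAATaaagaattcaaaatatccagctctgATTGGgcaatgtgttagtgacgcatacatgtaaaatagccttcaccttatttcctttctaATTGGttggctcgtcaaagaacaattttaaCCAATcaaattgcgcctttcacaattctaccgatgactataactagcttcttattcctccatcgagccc
H2BC21 (chr1:149886683-149886932, minus strand): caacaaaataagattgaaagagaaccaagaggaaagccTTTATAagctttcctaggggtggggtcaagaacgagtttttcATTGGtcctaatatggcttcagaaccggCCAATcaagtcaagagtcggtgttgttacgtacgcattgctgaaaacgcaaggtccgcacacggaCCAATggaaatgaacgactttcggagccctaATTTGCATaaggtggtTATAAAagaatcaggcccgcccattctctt
H1-5 (chr6:27867589-27867838, minus strand): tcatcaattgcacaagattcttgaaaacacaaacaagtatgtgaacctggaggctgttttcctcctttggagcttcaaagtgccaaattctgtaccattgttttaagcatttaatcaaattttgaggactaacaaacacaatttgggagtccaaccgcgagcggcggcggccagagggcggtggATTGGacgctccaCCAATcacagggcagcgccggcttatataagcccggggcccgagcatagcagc
The H2AC8 stretch largely overlaps the promoter window of H2BC8 on the other strand, since the RefSeq starts of the pair are 233 bases apart.

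With both libraries of each RNA added, the histone pool as a whole was larger on day 7 than on days 5 and 6 with either guide. Summed over the 69 genes, sgControl samples held 522, 435 and 372 CPM on day 5, 449, 361 and 307 CPM on day 6, and 624, 664 and 668 CPM on day 7. The sgRELA samples held 381, 390 and 389 CPM on day 5, 314, 340 and 366 CPM on day 6, and 635, 652 and 641 CPM on day 7. Every day 7 sample lay above every sample of days 5 and 6, and days 5 and 6 overlapped in sgControl but not in sgRELA. Single libraries of sgControl were not apart in this way. By plain total, the first libraries of day 5 replicate 1 and day 6 replicate 1 held 664 and 676 CPM. The day 7 libraries of that guide lay at 599 to 706. The ratio of day 7 to day 6 means was 1.75 in sgControl, 1.95 without sgControl day 6 replicate 1, and 1.89 in sgRELA. In bulk RNA, a larger share of cells making these mRNAs and more mRNA per such cell cannot be told apart. Day and any handling that went with a harvest day cannot be told apart either.

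The size of the day difference varied by family, given here as values with no test. Summed H1 went from a mean of 134 ± 31.9 CPM (SD, n = 3) on day 6 to 265 ± 3.05 CPM on day 7 in sgControl and from 116 ± 9.70 to 262 ± 10.2 CPM in sgRELA, ratios of 1.97 and 2.26. For H2B the ratios were 1.92 and 1.88, with day 7 means of 217 ± 8.44 and 211 ± 10.0 CPM. They were 1.44 and 1.46 for H2A, 1.34 and 1.74 for H3, and 1.20 and 1.38 for H4. H3 on day 6 in sgControl spread from 26.1 to 54.8 CPM and overlapped day 7, whose range was 47.4 to 52.7 CPM. Without sgControl day 6 replicate 1, the sample with the library that stood apart, the sgControl ratios were 2.27 for H1, 2.15 for H2B, 1.42 for H2A, 1.72 for H3 and 1.24 for H4, and the other 2 day 6 samples had H3 at 26.1 and 32.9 CPM, below every day 7 sample. H1 made up 35.8% ± 1.67 of the sgControl pool on day 6 and 40.6% ± 1.07 on day 7, while H2A made up 18.9% ± 0.550 on day 5 and 13.6% ± 0.605 on day 7.

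**Figure D1:**
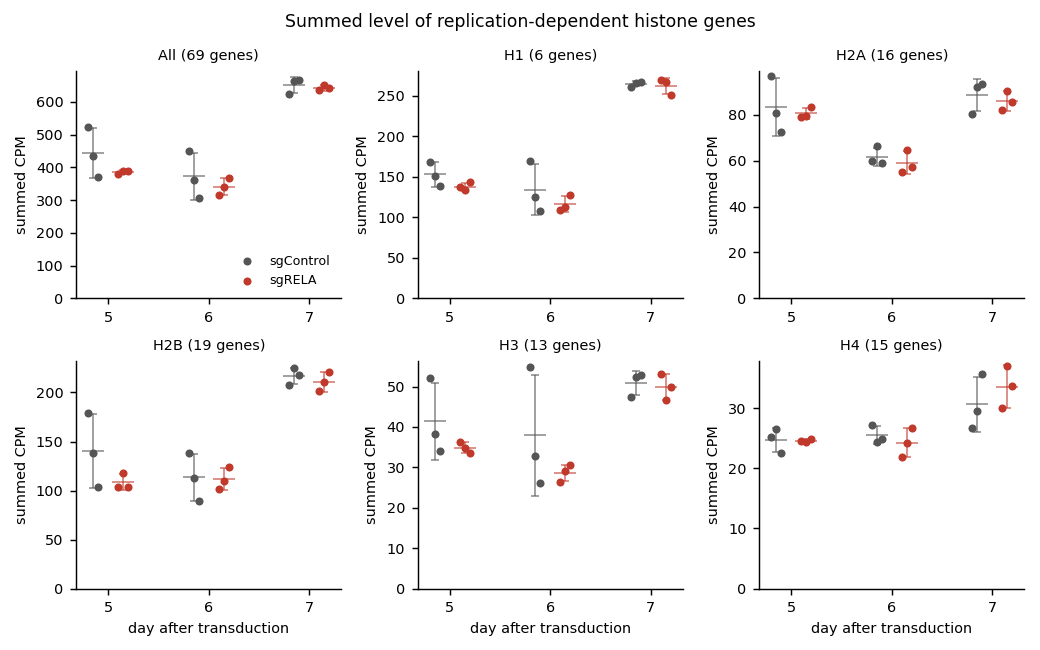
Summed CPM (vertical axis) of all 69 histone genes and of each family against day after transduction, with sgControl in grey and sgRELA in red. Each point is 1 RNA sample, and the horizontal mark with its bar is the mean ± SD of 3. All day 7 samples lie at 624 CPM or above in the first panel, and H1 and H2B show the widest gap between day 7 and the earlier days.

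Between day 7 and day 6, 14 of the 53 tested genes rose and none fell in sgControl, and 16 rose and none fell in sgRELA (edgeR quasi-likelihood F test, Benjamini-Hochberg adjusted p under 0.05 over 27553 genes). Over all genes tested, 14.6% were called in sgControl (8.25% higher, 6.31% lower) and 12.2% in sgRELA (7.21% higher, 5.02% lower). The histone shares were 26.4% and 30.2%. The median log2 fold change of the 53 was 0.58 in sgControl and 0.79 in sgRELA, beside -0.07 and -0.06 over all genes. In each guide 43 of 53 had a positive value, beside 45% of all genes in sgControl and 45.7% in sgRELA. The guides use separate samples, and 11 genes rose in both, which is 78.6% of the sgControl calls and 68.8% of the sgRELA calls: H1-2, H1-3, H1-5, H2AC8, H2BC5, H2BC7, H2BC10, H2BC14, H2BC17, H2BC18 and H3C12. Of these, the sgRELA call of H2BC14 (adjusted p = 0.0483) was lost in 12 of 14 alternatives, among them all 6 that left out 1 RNA sample, and its sgControl call in 5. The sgControl calls of H1-2 and H1-3 were lost in 5 and 4, and the other calls shared by both guides in at most 2. Only sgControl called H2AC6, H2AC12 and H2BC8, and only sgRELA called H1-4, H2AC11, H2BC13, H4C3 and H4C5, a split that no interaction test called. The same overlap over all genes was not counted, so neither the shared calls nor the split is shown to be particular to histone genes. By DESeq2, 16 rose and 2 fell in sgControl, and 20 rose and 0 fell in sgRELA. Without the 2 libraries with the fewest detected genes, one of them the library that stood apart, 19 rose in sgControl and the median was 0.86, and it was 0.81 without sgControl day 6 replicate 1.

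Among linker histones, H1-5 (ENSG00000184357, chr6:27866849-27867529, minus strand) had the smallest p in each guide. It was at 58.2, 49.1 and 55.7 CPM on day 5, 60.4, 43.5 and 37.0 CPM on day 6 and 140, 139 and 146 CPM on day 7 in sgControl. In sgRELA it was at 55.8, 50.2 and 59.2, then 42.1, 40.2 and 50.1, then 140, 137 and 142 CPM. Day 7 did not overlap the earlier days in either guide, while days 5 and 6 overlapped in sgControl and met at 50.1 and 50.2 CPM in sgRELA. The log2 fold change from day 6 to day 7 was 1.59 (SE 0.13, adjusted p = 1.88e-10) in sgControl and 1.66 (SE 0.13, adjusted p = 1.18e-10) in sgRELA. H1-2, another S-phase linker histone, was at 51.2, 41.0 and 40.02 CPM on day 6 and 63.6, 60.0 and 58.1 CPM on day 7 in sgControl, groups that did not overlap. Its log2 fold change was 0.46 (SE 0.13, adjusted p = 0.0148) there and 0.69 (SE 0.13, adjusted p = 0.000368) in sgRELA. H1-4 was at 37.7 ± 11.01 and 51.4 ± 3.25 CPM (SD, n = 3) on days 6 and 7 in sgControl, where it was not called, and rose by 0.76 in sgRELA (SE 0.18, adjusted p = 0.00279).

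Per kilobase of GENCODE v29 exon, H1-5 averaged 118 CPM over all 18 samples, H1-2 78.1 and H1-4 52.6, the 3 highest per-length levels among the genes with an annotated length. H2BC5 followed at 30.1 and H2BC12 at 28.7 CPM per kilobase. Many of these models hold the coding part alone, so per-length levels are approximate. Others run far past the stem-loop, by 1128 bases in H2AC6, and a longer model lowers the per-length level. The ranking therefore depends on the models. By counts, H1-5, H1-2 and H2AC6 together held 36.8% of the histone pool, and the 7 most counted genes held 59.6%.

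**Figure D2:**
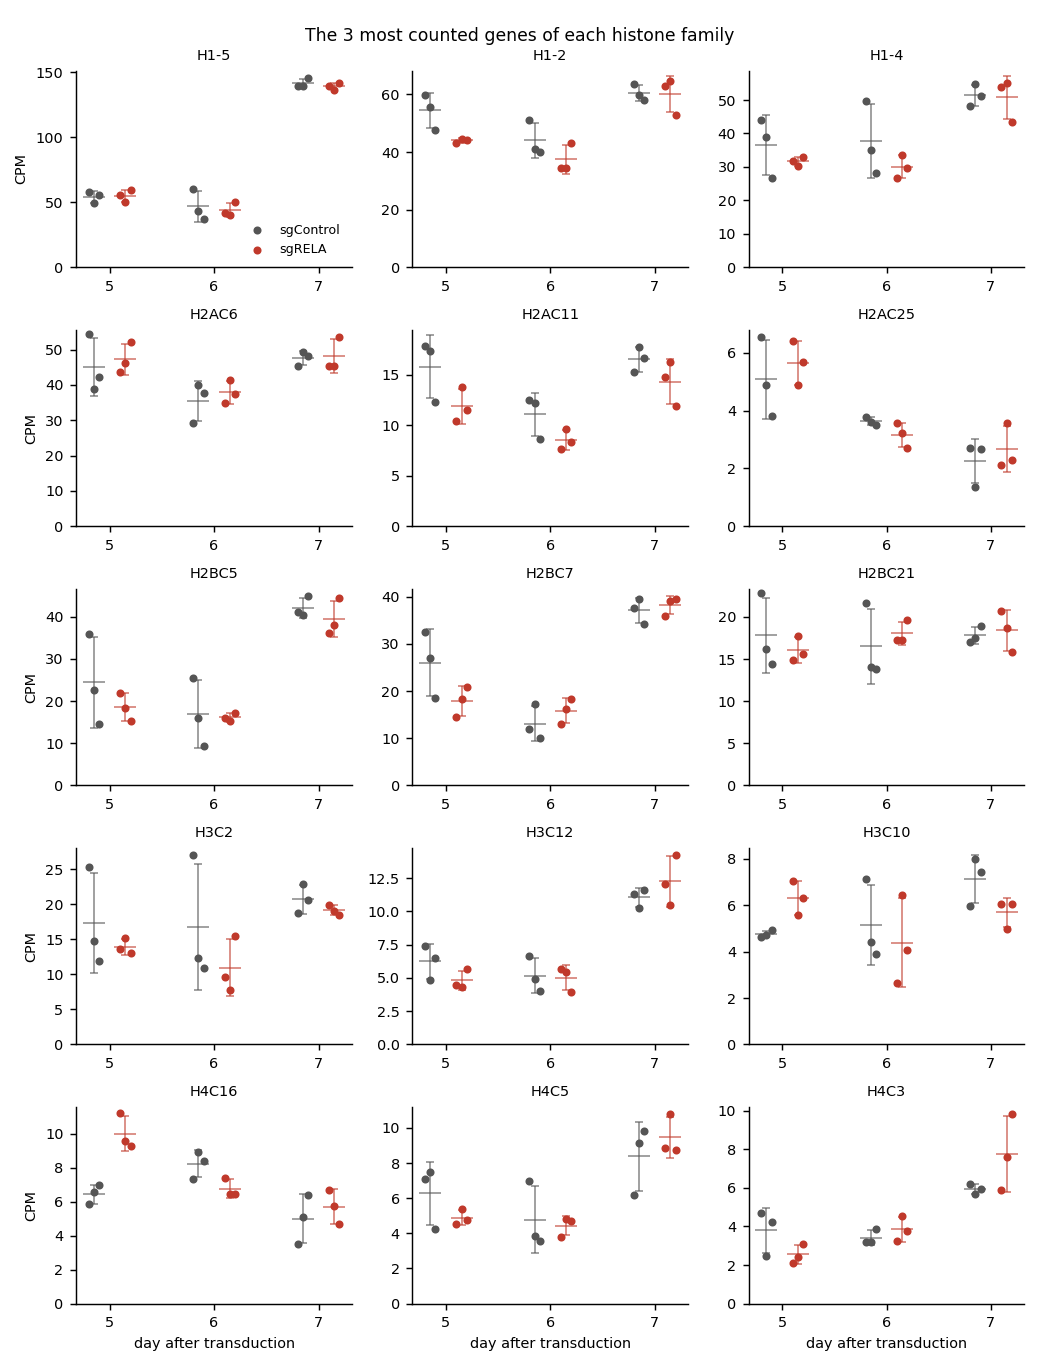
CPM (vertical axis) against day after transduction for the 3 most counted genes of each family, with sgControl in grey and sgRELA in red. Points are RNA samples, and the mark with its bar is the mean ± SD of 3. H1-5 at 137 to 146 CPM on day 7 stands clear of its earlier days, and H2BC21 stays between 13.9 and 22.8 CPM on all 3 days.

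H2B genes gave 7 calls of 15 tested in each guide. H2BC7 (chr6:26199520-26200715, plus strand) was at 11.96, 17.2 and 10.0 CPM on day 6 and 37.6, 39.4 and 34.3 CPM on day 7 in sgControl. In sgRELA the same days gave 12.99, 16.2 and 18.2, then 35.9, 39.0 and 39.6 CPM. The days did not overlap in either guide, with log2 changes of 1.504 (SE 0.21, adjusted p = 2.14e-06) and 1.27 (SE 0.20, adjusted p = 3.08e-05). H2BC5 rose by 1.31 and 1.29, H2BC10 by 1.79 and 1.42, H2BC17 by 1.36 and 1.71, and H2BC18 by 1.53 and 1.38 in sgControl and sgRELA. H2BC18 overlaps FCGR1A on the opposite strand and H2BC5 overlaps 2 annotated genes, and whether counting used strand is not given in the sources used here. H2BC21 (chr1:149884459-149886652, minus strand)(HIST2H2BE in GENCODE v29), had day 7 against day 6 values of 0.11 and 0.03 (SE 0.20 in each) and was not called.

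Among H2A genes, H2AC8 (chr6:26216975-26217483, plus strand) had the largest called change. It was at 1.23, 1.16 and 0.621 CPM on day 6 and 5.05, 8.82 and 9.16 CPM on day 7 in sgControl, and at 0.702, 1.16 and 1.57, then 6.58, 7.07 and 5.33 CPM in sgRELA. The days were well apart in both guides, with log2 changes of 2.93 (SE 0.45, adjusted p = 1.57e-05) and 2.47 (SE 0.45, adjusted p = 0.000175). H2AC6, the most counted H2A gene, moved less. It was at 29.2, 39.9 and 37.7 CPM on day 6 and 45.4, 49.4 and 48.1 CPM on day 7 in sgControl, and the log2 change, 0.42 (SE 0.14, adjusted p = 0.0465), was lost in 8 of 14 alternatives. In sgRELA its value was 0.34 (adjusted p = 0.131).

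H3 and H4 genes were less counted. Of 9 tested H3 genes, H3C12 rose by 1.10 in sgControl (SE 0.27, adjusted p = 0.00449) and by 1.28 in sgRELA (SE 0.27, adjusted p = 0.00114), from 6.62, 4.91 and 3.99 to 11.3, 10.2 and 11.6 CPM in sgControl. It overlaps H2AC17 (HIST1H2AM) on the same strand. The most counted H3 gene, H3C2, was at 27.1 CPM in sgControl day 6 replicate 1, the sample with the library that stood apart, and at 12.4 and 10.9 CPM in the other two. On day 7 it was at 18.7, 22.9 and 20.6 CPM, inside that range, and it was not called. In sgControl the H4 median was 0.68, and edgeR called 0 of 10 genes, 3 of which had an unadjusted p under 0.05 (25.2% of all genes). In sgRELA, H4C5 rose by 1.09 (SE 0.31, adjusted p = 0.0154) and H4C3 by 1.01 (SE 0.33, adjusted p = 0.0399), the latter lost in 11 of 14 alternatives.

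**Figure D3:**
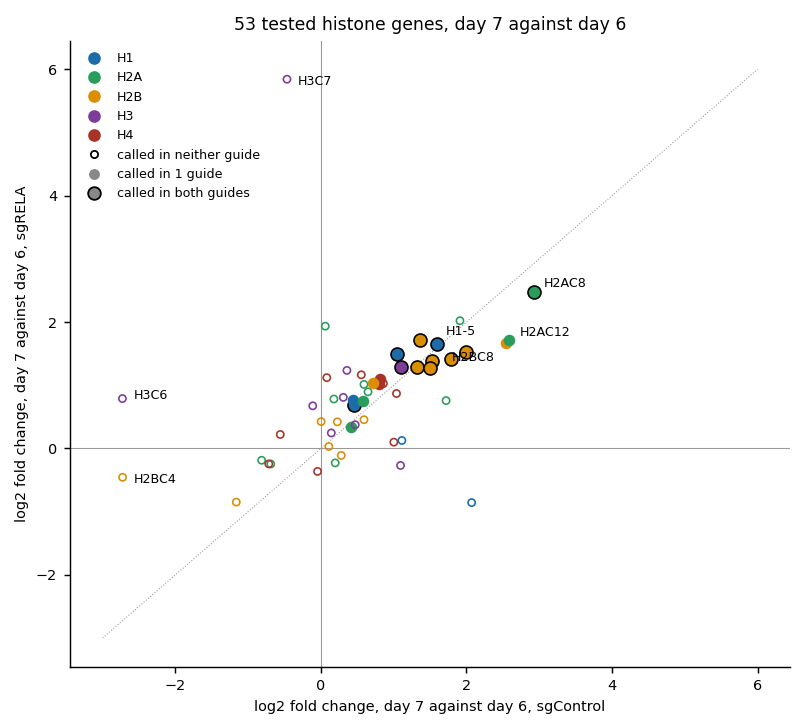
Log2 fold change from day 6 to day 7 in sgControl (horizontal) and sgRELA (vertical) for the 53 tested histone genes, coloured by family, with a dotted line of equal change. Genes called in both guides (outlined, 11) lie in the upper right, and 39 of 53 are higher in both. H3C7 has no count on day 6 in sgRELA, so its plotted value depends on the prior count of the fit.

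From day 5 to day 6 few histone genes were called, a share no higher than that of all genes in either guide. A missing call does not show that a gene stayed the same. In sgControl 3 of 53 fell and 0 rose, beside 8.87% of all genes called (3.29% higher, 5.58% lower), with a median of -0.25 against 0.04 over all genes. That median was -0.01 from the second library of each RNA alone, -0.09 without sgControl day 5 replicate 1 and -0.43 without sgControl day 6 replicate 1. They were H2BC7 (log2 fold change -0.99, SE 0.20, adjusted p = 0.00165), H2AC8 (-1.51, SE 0.45, adjusted p = 0.0284) and H2BC17 (-1.05, SE 0.31, adjusted p = 0.0288), and the calls were lost in 1, 7 and 9 of 14 alternatives. H2BC7 had gone from 32.5, 27.0 and 18.4 CPM on day 5 to 11.96, 17.2 and 10.0 CPM on day 6, which do not overlap. In sgRELA edgeR and DESeq2 each called 0 of 53 (6.91% of all genes by edgeR, 2.57% higher and 4.34% lower), 11 had an unadjusted edgeR p under 0.05, 2 of them higher, where 19% of all genes did, and the median was -0.18. All 13 tested H2A genes had a negative value in sgControl and 11 of 13 in sgRELA, with medians of -0.61 and -0.81. Among all genes, 52.9% had a positive value in sgControl and 52.4% in sgRELA. H4 medians were 0.36 and 0.23.

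Day 7 against day 5, which shares its samples with both comparisons above, gave 7 genes higher and 2 lower in sgControl and 16 higher and 2 lower in sgRELA. Over all genes 13% were called in sgControl (6.65% higher, 6.36% lower) and 12.4% in sgRELA (6.35% higher, 6.06% lower). The medians were 0.42 and 0.69 beside -0.01 in each over all genes. In sgControl the median was 0.08 from the first library of each RNA alone and 0.85 from the second, and in sgRELA it was 0.50 from the second. H1-5 was 2.60-fold higher in sgControl (log2 1.38, SE 0.13, adjusted p = 7.56e-09) and 2.53-fold in sgRELA (log2 1.34, SE 0.13, adjusted p = 1.36e-08). H2BC14 went from 0.965, 0.274 and 0.432 to 2.57, 3.64 and 5.29 CPM in sgControl, with log2 fold changes of 2.77 and 2.84 in the 2 guides. H2BC18 rose by 1.35 and 1.92, H2BC10 by 1.81 and 1.64, and H2BC7 by 1.09 in sgRELA, with 0.51 and no call in sgControl. H2AC6 and H2BC21 were within 0.20 of no change in both guides, with standard errors of 0.14 and 0.20.

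Some genes went the other way. H2AC25 (chr1:228456979-228457873, minus strand), on chromosome 1 outside the large cluster, was at 6.53, 4.89 and 3.80 CPM on day 5 and 2.69, 1.37 and 2.68 CPM on day 7 in sgControl. In sgRELA it went from 6.40, 4.88 and 5.67 to 2.13, 3.57 and 2.31 CPM. The days did not overlap in either guide, and the log2 fold changes were -1.17 (SE 0.36, adjusted p = 0.0299) and -1.08 (SE 0.36, adjusted p = 0.0458), lost in 8 and 10 of 14 alternatives. H4C16, the H4 gene on chromosome 12, fell by 0.81 in sgRELA (SE 0.27, adjusted p = 0.0420), from 11.2, 9.56 and 9.25 to 6.70, 5.77 and 4.66 CPM, a call lost in 10 of 14 alternatives. H3C6 had 61 counts on day 5 and 2 on day 7 in sgControl, a level 32.7 times lower (95% exact interval 8.68 to 277, counting error only), with an edgeR adjusted p = 0.0221 that was lost in 5 of 14 alternatives. The same gene had 67 counts on day 7 in sgRELA.

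No histone gene was called between the guides. With edgeR, 0 of 53 passed on day 5, day 6 and day 7 and averaged over days, where 0.138%, 0.214%, 0.0907% and 0.388% of all genes did. At an unadjusted p under 0.05 there were 9, 4, 1 and 9 of 53, beside 5.96%, 6.07%, 4.68% and 7.15% of all genes, and DESeq2 also called 0 each time. The 0 of 53 is near the called share of all genes. On day 5 and averaged over days, 9 of 53 is above the unadjusted share of all genes. The medians, sgRELA against sgControl, were -0.27, -0.18, -0.01 and -0.10, and depended on the library used. On day 5 the median was -0.52 from the first library of each RNA alone and 0.37 from the second, and on day 6 it was -0.39 and 0.07. The smallest p belonged to H2BC18 on day 5 (log2 -0.77, SE 0.25, adjusted p = 0.606), H2AC13 on day 6 (-2.17, SE 0.70, adjusted p = 0.443) and H3C6 on day 7 (adjusted p = 0.586, 67 counts against 2). For H1-5 the differences were 0.02, -0.09 and -0.02 with an SE of 0.13. The test of whether the day changes differed between guides called 0 of 53, beside 0.00363% of all genes. There were 2 at an unadjusted p under 0.05 (4.69% of all genes) and 0 by DESeq2. A p above the threshold does not show that the guides act alike.

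**Figure D4:**
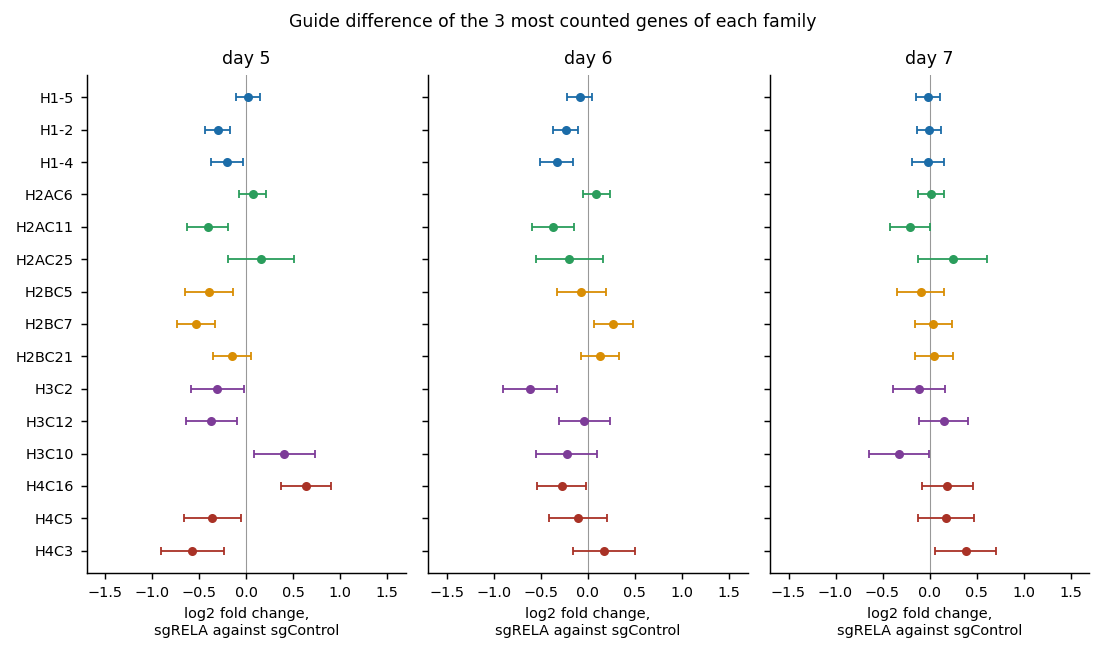
Log2 fold change of sgRELA against sgControl (horizontal axis) on each day for the 3 most counted genes of each family, with bars of 1 SE. Values for H1-5 lie within 0.09 of no difference on all 3 days, and none of the plotted differences passed the test.

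The gene lists around these genes moved in the same comparisons. Of 38 G1/S and DNA replication genes, 36 rose from day 6 to day 7 in each guide, with medians of 1.20 and 1.17, after 24 and 21 had fallen from day 5 to day 6. Among all genes tested, 8.25% in sgControl and 7.21% in sgRELA rose from day 6 to day 7, with medians of -0.07 and -0.06. From day 5 to day 6, 5.58% and 4.34% of all genes fell. By day 7 against day 5, UHRF1 (log2 1.37 and 1.33), a reader of hemimethylated DNA, and RRM2 (1.16 and 1.17), a ribonucleotide reductase subunit, were higher in both guides. CDT1, a licensing factor degraded in S phase, fell by 0.47 in sgControl. All 18 G2/M genes rose from day 6 to day 7 in each guide, with medians of 1.19 and 1.25. The histone genes had smaller medians, 0.58 and 0.79, and wider spread than either list. Of the 53 tested histone genes, 21 had a mean under 50 counts, and the part of counting noise in that spread was not tested.

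Of 17 tested factors for histone mRNA transcription and processing, 8 rose and 1 fell in sgControl and 6 rose and 1 fell in sgRELA between day 6 and day 7. Among all genes, 8.25% rose and 6.31% fell in sgControl, and 7.21% rose and 5.02% fell in sgRELA. SLBP was at 36.0 ± 3.69 and 68.9 ± 3.22 CPM (SD, n = 3) on days 6 and 7 in sgControl, a log2 change of 0.94 (SE 0.13, adjusted p = 1.49e-06), and 0.83 in sgRELA. CSTF2, a subunit of the cleavage complex, rose by 0.45 and 0.48 from day 5 to day 7, and CTIF, a translation initiation factor that works with the nuclear cap-binding complex, fell by 0.52 and 0.51. Of 21 histone chaperones, 17 and 15 rose from day 6 to day 7. By day 7 against day 5 the FACT subunit SUPT16H rose by 0.92 and 0.82, ASF1B, which carries H3-H4 dimers, by 1.20 and 1.02, and RBBP4 by 0.50 and 0.55.

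Among 11 tested replication-independent variants, 6 rose and 1 fell in sgControl and 4 rose and 1 fell in sgRELA between day 6 and day 7. The shares of all genes were 8.25% and 6.31% in sgControl, and 7.21% and 5.02% in sgRELA. By day 7 against day 5, H2AZ2 rose by 0.72 and 0.73 and MACROH2A1 by 0.44 and 0.53. The linker variant H1-10 fell by 1.06 from day 5 to day 7 in sgControl (SE 0.29, adjusted p = 0.0110), with -0.70 and no call in sgRELA. The mitochondrial share of counts also moved with day, at 7.43% to 9.28% on day 5, 8.33% to 9.87% on day 6 and 7.41% to 7.85% on day 7, and its part in these results was not tested.

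**Figure D5:**
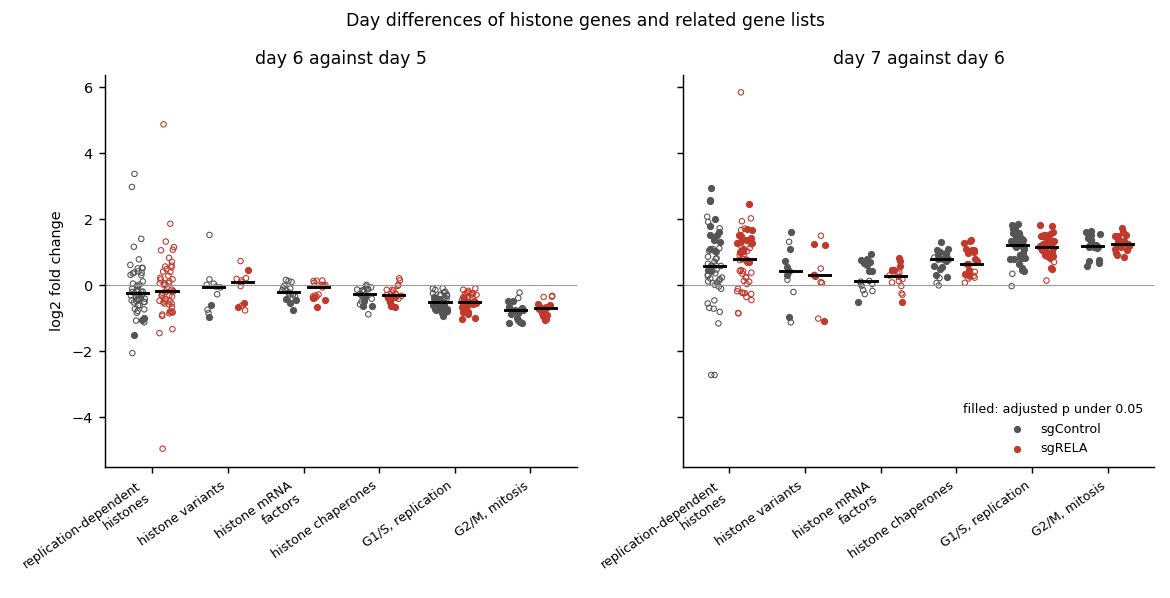
Log2 fold change (vertical axis) of each tested gene in the histone set and 5 related lists, for day 6 against day 5 (left) and day 7 against day 6 (right), in sgControl (grey) and sgRELA (red). Filled points passed the test and black bars are medians. Replication and mitosis genes form tight groups below 0 on the left and above 0 on the right, and the histone genes follow with medians of 0.58 and 0.79 on the right and a wider spread.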

How the data were processed

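Histone gene expression was measured by RamDA-seq of total RNA, from 100 pg of RNA per library per the labels, in 36 libraries from 18 RNA samples. The authors deposited 1 table of raw counts per gene, with no normalization stated. Per the submitters' processing notes, reads were handled with cutadapt 1.18 and STAR 2.7.9a on GRCh38. The counting tool, annotation, strand setting and treatment of reads with several matches are not given in the sources used here. All columns were matched to samples by the names in the labels, and no column was left unmatched (0 of 36).

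Counts of the 2 libraries of each RNA were added. The 18 sums were fitted in 1 edgeR 4.0.16 model (R 4.3.3) with a mean for each of 6 groups, TMM scaling, filterByExpr (minimum count 10) and quasi-likelihood F tests, and p-values were adjusted by Benjamini-Hochberg over the 27553 genes tested. Calls are at adjusted p under 0.05. CPM values use TMM-scaled totals, errors are SD over 3 RNA samples, and the interval for a gene with few counts is an exact 95% one, which covers counting error only since the labels name no molecular identifiers. Where nothing says replicates came from separate cultures beyond the triplicate transductions, p-values measure the spread between these samples.

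The histone genes and the related lists were chosen with earlier results of these data known. Named were the 3 most counted genes of each family, up to 6 called histone genes per direction and comparison with the smallest p, and up to 3 called genes per direction of each related list by day 7 against day 5. Other named genes were chosen after their values were seen. Symbols come from the gene name table, coordinates from GENCODE v29 and promoters from RefSeq, and H2AC18 was not analysed here. Alternatives were DESeq2 1.42.0, its size factors in edgeR, totals without TMM, no filter, each library alone, leaving out 2 libraries, the replicate number as a block, and leaving out each RNA sample. The procedure was tested on simulated counts. One gene of the variant list is not reported here.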

Additional observations from a re-analysis of the deposited data

Results flagged for a closer look

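In a search of 42 sets of 6 libraries (7 measures in 6 groups), 4 values stood far from the rest of their group, all of them from the first library of sgControl day 6 replicate 1. That library held the histone genes at 675.8 CPM by plain total, and the other 5 libraries of its group at 305.7 to 375.2. Its H1 genes were at 247.4 CPM (the others at 110.0 to 139.4), its H2B genes at 211.8 (91.9 to 119.7) and its H3 genes at 105.1 (22.7 to 39.4). Chance flags about 1 in 20 such sets, and these 4 share 1 library and overlapping genes, so they are not independent.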

How the results depend on the processing

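No histone gene was called between the guides, or in the interaction, under any of the alternatives run, and no called histone gene named in the report reversed its sign. Single genes of the related lists were not followed through the alternatives. Using 1 library of each RNA lowered most counts, but not all. The first library alone gave 1 called gene for day 6 against day 5 in sgControl (3 with both), 6 for day 7 against day 6 in each guide (14 and 16), and 1 and 5 for day 7 against day 5 in sgControl and sgRELA (9 and 18). The second library alone gave 1 for day 6 against day 5 in sgControl, now higher, 10 for day 7 against day 6 in sgRELA and 8 for day 7 against day 5 in sgRELA, but 13 for day 7 against day 6 and 12, all higher, for day 7 against day 5 in sgControl. Leaving out each RNA sample in turn gave 1 to 5 called genes for day 6 against day 5 in sgControl, 9 to 17 for day 7 against day 6 in sgControl, 12 to 15 in sgRELA, 5 to 10 for day 7 against day 5 in sgControl and 10 to 14 in sgRELA. The counts were lowest without sgControl day 6 replicate 3 (9), without sgControl day 7 replicate 2 or replicate 3 (5 each) and without sgRELA day 5 replicate 1 (10), and highest for day 6 against day 5 without sgControl day 6 replicate 1 (5). These settings use fewer counts or samples. For day 7 against day 5 in sgControl the median also moved. It was 0.08 from the first library alone, 0.85 from the second and 0.42 with both. The cause of these differences was not tested.

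Totals without TMM moved the median of all genes by -0.10 for day 7 against day 6 in sgControl, where 12 histone genes were then higher and 1 lower. H1-5 kept its call in all 14 alternatives for day 7 against day 6 and against day 5 in each guide. No shared deviation of same-numbered samples was seen: those of the 2 guides on one day had correlations of their deviations of -0.01 to 0.06 (9 pairs). Same-numbered samples of one guide on different days had -0.11 to 0.04 (18 pairs). Such values cannot show whether the samples came from one culture. With the replicate block, the counts were 2 and 0 for day 6 against day 5, 15 and 15 for day 7 against day 6, and 11 and 16 for day 7 against day 5 in sgControl and sgRELA. Of the 53 tested genes, 21 had a mean under 50 counts, which limits what can be seen for single H3 and H4 genes.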

Other observations

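Many H2A and H2B genes are transcribed in opposite directions from a shared intergenic stretch. Among the annotated RefSeq starts, 12 divergent pairs of histone genes lay within 1000 bases, and both genes were tested in 8. In the H2BC8 and H2AC8 pair both genes went up from day 6 to day 7 in sgControl, with log2 fold changes of 2.54 and 2.93, and the H2BC8 call was lost in 4 of 14 alternatives. In sgRELA the values were 1.67 for H2BC8, which was not called, and 2.47 for H2AC8, which was. The partners H2AC25 and H2BC26, whose starts are 230 bases apart on chromosome 1, went in opposite directions from day 5 to day 7: -1.17 and 0.74 in sgControl and -1.08 and 0.90 in sgRELA, where only H2AC25 was called in sgControl and both in sgRELA. H2BC26 was at 6.93, 6.40 and 6.69 CPM on day 5 and 12.7, 8.99 and 11.7 CPM on day 7 in sgControl. H2BC7 rose from day 6 to day 7 by 1.504 and 1.27, while its partner H2AC7 had values of 0.18 and 0.78 and was not called in either guide. These pairs were chosen after their values were seen.

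Among the 48 tested genes with a promoter sequence, the 19 with the octamer had median log2 fold changes from day 6 to day 7 of 0.65 in sgControl and 0.78 in sgRELA, and the 29 without it 0.45 and 0.76. Within H2B, 11 genes with the octamer had medians of 1.36 and 1.27, and 4 without it 0.50 and 0.73, given as a description with no test. From day 5 to day 7 the H2B medians were 0.51 with and 0.57 without the octamer in sgControl, and 1.09 and 0.98 in sgRELA. Another 3 RNAs of 8 listed that lack a poly(A) tail in whole or in one isoform were tested (RN7SL1, MALAT1 and NEAT1). None was called higher from day 6 to day 7, where 8.25% of all genes were in sgControl and 7.21% in sgRELA. So few genes do not set these RNAs apart from other genes, and MALAT1 had SEs of 0.48 and 0.47. From day 5 to day 7, RN7SL1 fell in sgControl (log2 -0.55, adjusted p = 0.0245) and NEAT1 in sgRELA (-0.23, adjusted p = 0.011). NEAT1 was higher in sgRELA than in sgControl averaged over days, by 0.31 on the log2 scale (SE 0.04, adjusted p = 1.08e-06).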
